A study of Mus musculus with 6 samples.

Results

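Among the 718 entries of a small RNA sequencing table of islet vesicles, 2 entries belonged to the paralogous miRNAs miR-103 and miR-107. They were chosen by name, and any hairpin or arm suffix was accepted. These were mmu-miR-103-3p and mmu-miR-107-3p. Both had reads in all 6 libraries, and neither was called changed between the vesicles of obese and lean mice. No row was listed for the 5p arms. All libraries were made from small extracellular vesicles (sEVs) shed by cultured islets of wild-type mice of the strain labelled C57/B6J, which the methods give as C57BL/6J. Of these, 3 came from islets of mice on a normal chow diet (NCD), termed nid-sEVs, and 3 from islets of mice on a high-fat diet (HFD), termed aid-sEVs. The islets were kept in serum-free medium for 48 hours, and 9 weeks of HFD were taken as the compensatory phase. The methods state in general that replicates of the experiments were biological. For these libraries the sources do not say whether each came from a separate mouse, a separate culture or pooled islets, so p-values measure the spread between these libraries, and how far it is technical is not known.

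MiRNAs guide Argonaute proteins to messenger RNAs, and the bases near their 5′ end, the seed, set most of the pairing. The genes of miR-103 and miR-107 lie inside genes for pantothenate kinases, the enzymes that start the synthesis of coenzyme A. Both miRNAs are known to be raised in liver of obese mice and to dampen insulin sensitivity, with caveolin-1, a stabiliser of the insulin receptor in fat cells, as a known target. The comparison of aid-sEVs with nid-sEVs asks whether the miRNAs that islets shed in vesicles differ when islets adapt to obesity.

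The mature sequences are shown because they set how far the pair can be told apart. RefSeq gives them as follows, with the seed (bases 2 to 8) in capitals.
miR-103-3p: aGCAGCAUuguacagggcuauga
miR-107-3p: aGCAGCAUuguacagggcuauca

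Among the 479 entries with a miRBase name, 424 had a mature sequence in RefSeq, and this seed was found in 2 of them, the pair itself. The sequences of 23 bases were identical at 22 positions and differed by G22C, with miR-103-3p as the reference and positions counted from 1 at the 5′ end. The base that differs is in capitals in the next lines.
miR-103-3p: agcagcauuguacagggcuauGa
miR-107-3p: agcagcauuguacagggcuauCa

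Bases 1 to 21 are shared, so a read that ends at base 21 or earlier fits both. How such reads were assigned is not given in the sources used here. The division of reads between the entries is therefore uncertain, and their sum was examined as well.

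In GRCm38.p6, miR-103-3p is encoded by a pair of hairpins. Mir103-1 lies on the plus strand of chromosome 11 from 35782396 to 35782481, inside Pank3, which runs from 35769484 to 35791285 on the same strand. Mir103-2 lies on the plus strand of chromosome 2 from 131288052 to 131288137, inside Pank2, which spans 131262495 to 131299188. Mir107 lies on the minus strand of chromosome 19 from 34820687 to 34820773, inside Pank1, from 34806940 to 34879455. Each hairpin is intronic, since it overlapped an exon in 0 of the 1 Pank3, 7 Pank2 and 3 Pank1 transcripts that span it. The mature miR-103-3p is the same from both of its hairpins, so its level is a sum over the Pank2 and Pank3 introns.

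Totals of 50534 to 129152 reads stood behind the nid-sEV libraries and 122266 to 519315 behind the aid-sEV libraries. Levels are in RPM, the reads of an entry scaled to a common total for each library. The listed entries held 99.75% to 99.96% of these totals. Levels are therefore shares of the reads assigned to such entries, not of all small RNA of the vesicles. Fewer vesicles that carry a miRNA and fewer copies per vesicle cannot be told apart. In nid-sEV replicate 1, 33.4% of the reads went to entries without a miRBase name, against 6.61% to 9.45% elsewhere. The defining miRNA of islet endocrine cells, miR-375-3p, was present in all libraries, with 56584 to 346480 RPM in nid-sEVs and 136424 to 163590 RPM in aid-sEVs. It is 1 of 4 islet endocrine markers, which summed to 73247 to 359718 RPM in nid-sEVs and 182496 to 202064 RPM in aid-sEVs. Of the 4, 2 had a log2 difference above 0 and 2 below 0. Only miR-182-5p was called, upward, where 15.6% of all entries were. Its means were 2825 RPM in nid-sEVs and 31112 RPM in aid-sEVs (log2 difference 3.47, adjusted p = 0.0034 by limma). Markers of other cells were present too. The 3 exocrine pancreas markers summed to 2533 to 8997 RPM in nid-sEVs and 698 to 3370 RPM in aid-sEVs, the 4 mesenchymal markers to 4650 to 20201 and 4170 to 10341 RPM, and the 2 endothelial markers to 989 to 3717 and 679 to 1325 RPM. For the 2 red blood cell markers the ranges were 237 to 2036 and 40.9 to 252 RPM, for miR-122-5p, the liver marker, 396 to 3000 and 24.5 to 42.6 RPM, and for the 3 leukocyte markers 0 to 178 and 8.18 to 13.5 RPM. The part of these cells in the levels of miR-103-3p and miR-107-3p was not tested.

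The miR-103-3p entry was of middle abundance. Its 80, 68 and 12 reads in nid-sEV replicates 1, 2 and 3 correspond to 619, 1035 and 237 RPM. The 182, 181 and 51 reads of aid-sEV replicates 1, 2 and 3 correspond to 350, 514 and 417 RPM. The 3 aid-sEV libraries lay together inside the range of the nid-sEV libraries, whose highest and lowest values were nid-sEV replicates 2 and 3. The 95% Wilson intervals of these 2 libraries, 817 to 1312 RPM and 136 to 415 RPM, did not overlap. Such intervals hold only the counting error of independent reads. Reads copied from 1 molecule by PCR are not independent, so the intervals may be too narrow. In the libraries of most similar depth, nid-sEV replicate 1 and aid-sEV replicate 3, the levels were 619 and 417 RPM, with intervals of 498 to 771 and 317 to 548 RPM that overlapped. These libraries had 33.4% and 9.22% of their reads in entries without a miRBase name, so this comparison depends on which reads form the total. Scaled to named reads alone, both intervals rise, that of nid-sEV replicate 1 by more, and they no longer overlap. A single library per group does not compare the groups. Over all 6 libraries, limma on named entries alone gave miR-103-3p a log2 difference of -0.51 (adjusted p = 0.62).

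Levels of miR-107-3p were lower and rested on few reads. In nid-sEV replicates 1, 2 and 3, 27, 2 and 10 reads gave 209, 30.5 and 198 RPM. In aid-sEV replicates 1, 2 and 3, 39, 11 and 20 reads gave 75.1, 31.2 and 164 RPM. In both groups the lowest value was that of replicate 2, from 2 reads in nid-sEVs and 11 reads in aid-sEVs. The labels do not say that the replicate numbers pair the libraries. The floor of 3 reads corresponds to 45.7 RPM in nid-sEV replicate 2, so the level there was not measurable beyond an upper limit of 111 RPM. In the pair of similar depth, the level of miR-107-3p was 209 RPM in the nid-sEV library and 164 RPM in the aid-sEV library, with overlapping intervals of 144 to 304 and 106 to 253 RPM. Here too the levels depend on which reads form the total, but these intervals still overlap when scaled to named reads alone. The plot of levels by library shows both entries side by side.

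**Figure D1:**
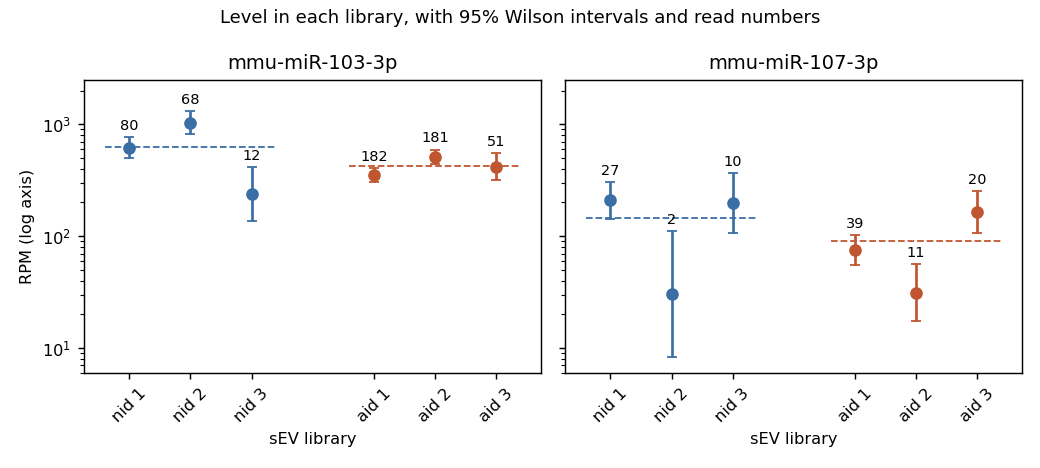
Level of mmu-miR-103-3p and mmu-miR-107-3p in RPM on a log axis in each nid-sEV (blue) and aid-sEV (red) library. Points are libraries, bars are 95% Wilson intervals, numbers above them are reads, and dashed lines are group means (n = 3). The aid-sEV points lie within the span of the nid-sEV points for miR-103-3p. For miR-107-3p the aid-sEV points run from 31.2 to 164 RPM and the nid-sEV points from 30.5 to 209 RPM. The lowest nid-sEV point of miR-107-3p rests on 2 reads, under the floor of 3.

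Mean levels of miR-103-3p were 631 ± 399 RPM in nid-sEVs and 427 ± 82.2 RPM in aid-sEVs (SD, n = 3). On the log2(RPM + 1) scale the difference between aid-sEVs and nid-sEVs was -0.34 (SE 0.65), with a 95% interval of -1.91 to 1.23 and an adjusted p of 0.78 by limma, and its sign turned to 0.16 when RPM was divided by TMM factors. Means of miR-107-3p were 146 ± 100 RPM and 90.0 ± 67.4 RPM, a log2 difference of -0.57 (SE 1.05, 95% interval -3.11 to 1.98, adjusted p = 0.77 by limma). Neither difference exceeded the spread between replicates. The intervals are wide, and both include rises and falls of over 1 on the log2 scale, so a change of that size is not excluded. Calls required both a log2 fold change beyond 1 in either direction and an adjusted p below 0.05. Of the 718 entries tested, 125 (17.4%) were called in either direction, against 0 of the 2 members. The members also had 0 calls by edgeR's quasi-likelihood test, DESeq2 and edgeR's exact test on reads, and their unadjusted p by limma were 0.62 and 0.61.

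The place of the members depended on the entries they were set against. The median log2 fold change was 1.11 over all 718 entries, many of them with 0 reads in the shallower nid-sEV libraries, and -0.21 over the 219 entries detected in all 6 libraries. Over all entries the lower quartile was -0.67, so the members, at -0.34 and -0.57, lay between it and the median and nearer to the quartile. Among the 219 detected entries they lay near the middle, above 46.6% and 43.4% of the entries, where the quartiles were -1.42 and 0.94.

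Summed, the level of the pair was 828, 1066 and 435 RPM in nid-sEV replicates 1, 2 and 3. The sums in aid-sEV replicates 1, 2 and 3 were 426, 545 and 581 RPM. The values of nid-sEV replicates 1 and 2 lay above all aid-sEV libraries, while that of nid-sEV replicate 3 lay between them. The means were 777 ± 318 RPM in nid-sEVs and 517 ± 81.3 RPM in aid-sEVs (SD, n = 3), and the difference on the log2(RPM + 1) scale was -0.50 (two-sided exact permutation test, p = 0.30, where 3 against 3 allow 0.10 at the least). Entered into limma as 1 entry, the sum had the same difference with an SE of 0.50, a 95% interval of -1.71 to 0.71 and an adjusted p of 0.54. With TMM factors the difference was -0.0062, so its size rests on the scaling. Adding the entries together narrowed the interval but gave no call.

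The share of miR-107-3p in the reads of the pair does not depend on library scaling. It was 25.2%, 2.86% and 45.5% in nid-sEV replicates 1, 2 and 3, where miR-107-3p had 27, 2 and 10 reads beside 80, 68 and 12 of miR-103-3p. In aid-sEV replicates 1, 2 and 3 it was 17.6%, 5.73% and 28.2%, from 39 of 221, 11 of 192 and 20 of 71 reads. In both groups the share was lowest in replicate 2 and highest in replicate 3, numbers that the labels do not pair. The Wilson intervals of nid-sEV replicates 2 and 3, 0.79% to 9.83% and 26.9% to 65.3%, were far apart, as were those of aid-sEV replicates 2 and 3, 3.23% to 9.97% and 19.0% to 39.5%. The share of reads assigned to miR-107-3p thus differed between libraries of 1 group, with the nid-sEV end resting on 2 reads, under the floor of 3, and with reads of uncertain assignment included. Between the groups, the mean shares of 24.5 ± 21.3% and 17.2 ± 11.2% (SD, n = 3) differed by -7.33 percentage points, less than the spread between replicates (two-sided exact permutation test, p = 0.70). Without nid-sEV replicate 3, the library with 22 reads, the difference was 3.14 points in the other direction, and without nid-sEV replicate 2 it was -18.2 points.

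**Figure D2:**
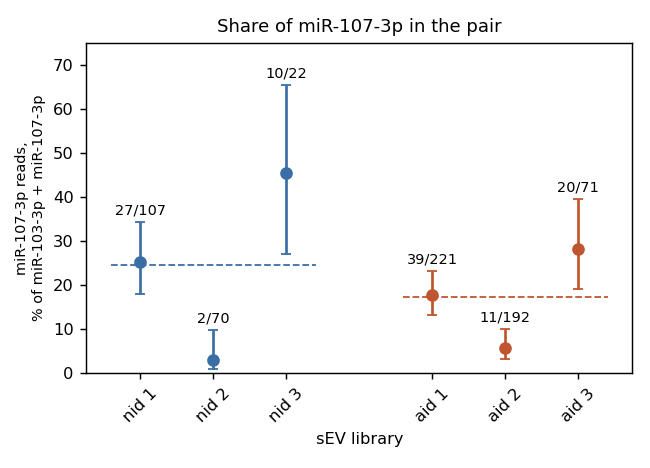
Share of miR-107-3p in the summed reads of miR-103-3p and miR-107-3p, in percent, for each nid-sEV (blue) and aid-sEV (red) library. Bars are 95% Wilson intervals, fractions are reads, and dashed lines are group means (n = 3). The lowest share in both groups is that of replicate 2, 2.86% in nid-sEVs and 5.73% in aid-sEVs. The labels do not pair the replicate numbers.

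The profiles of the paralogs over the libraries were compared with those of other entries. Profiles of log2(RPM + 1), each centred on its own mean over the 6 libraries, were compared by their root mean square difference over the named entries detected in all libraries. The distance between miR-103-3p and miR-107-3p was 1.63, and miR-107-3p ranked 152 of 177 in likeness to miR-103-3p. In the other direction miR-103-3p ranked 100 of 177, and the median distance of all entries from miR-107-3p was 1.56, so the distance was long for miR-103-3p and ordinary for miR-107-3p. The profile of miR-107-3p rests on 2 to 39 reads in a library, with uncertain assignment between the paralogs. The part of counting error and of assignment in this distance was not tested. The entries nearest to miR-103-3p were miR-300-3p, miR-494-3p, miR-1224-5p and miR-378a-3p, at distances of 0.29, 0.37, 0.38 and 0.40, against a median of 1.11 over all entries compared. The nearest, miR-300-3p, had 790, 1523 and 396 RPM in nid-sEV replicates 1, 2 and 3 and 753, 627 and 785 RPM in aid-sEV replicates 1, 2 and 3. Like miR-103-3p, it was highest in nid-sEV replicate 2 and lowest in nid-sEV replicate 3. No entry came as near to miR-107-3p, for which miR-148a-5p, miR-341-3p, miR-666-5p and let-7j were the nearest at 0.95 to 1.04. With 6 libraries these distances are descriptions.

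By mean level in aid-sEVs, miR-103-3p ranked 108 and miR-107-3p ranked 197 of the 479 named entries. The neighbours of miR-103-3p were miR-483-5p (444 ± 83.2 RPM) and miR-335-5p (437 ± 98.8 RPM) above it and miR-2137 (404 ± 170 RPM) and let-7d-3p (402 ± 43.6 RPM) under it (SD, n = 3). These means lay within 1 SD of that of miR-103-3p, so the order among them is not resolved. Around miR-107-3p, miR-7688-5p and miR-494-3p were next above, at 91.9 and 91.1 RPM, and miR-340-3p and miR-5106 next under it, at 89.8 and 85.5 RPM, all well within its SD of 67.4 RPM. Within single libraries over all entries, the rank of miR-103-3p ran from 83 in nid-sEV replicate 2 to 140 in nid-sEV replicate 3, and that of miR-107-3p from 148 in nid-sEV replicate 1 to 322 in nid-sEV replicate 2. The last of these ranks rests on 2 reads, under the floor of 3.

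The pair shares the hexamer AGCAGC with the miR-15 and miR-16 miRNAs, which are known to restrain the cell cycle, and these form the hexamer group described here. The hexamer stands at bases 1 to 6 in miR-103-3p and miR-107-3p and is shifted by 1 base in the others. Among the 424 entries with a RefSeq sequence, 8 (1.89%) held AGCAGC within bases 1 to 8 of the miRNA strand itself, 2 of them the pair. The other 6 are shown with the hexamer in capitals, since the shift gives them another seed.
miR-15a-5p: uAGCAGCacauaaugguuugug
miR-15b-5p: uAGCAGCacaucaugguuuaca
miR-16-5p: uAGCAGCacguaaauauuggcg
miR-195a-5p: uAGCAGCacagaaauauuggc
miR-497a-5p: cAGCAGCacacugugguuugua
miR-503-5p: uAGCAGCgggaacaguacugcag

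Of these 6, 0 were called changed, where 17.4% of all entries were called. Their median log2 fold change was 0.098, against 1.11 over all entries and -0.21 over those detected in all libraries. The entry miR-16-5p, the highest of the 6 in each nid-sEV library, had 1936, 411 and 336 RPM in nid-sEV replicates 1, 2 and 3 and 514, 585 and 826 RPM in aid-sEV replicates 1, 2 and 3. Its highest value was in nid-sEV replicate 1, and the groups overlapped. For miR-15b-5p the nid-sEV libraries 1, 2 and 3 gave 83, 0 and 1 reads, or 643, 0 and 19.8 RPM. The aid-sEV libraries 1, 2 and 3 gave 319, 392 and 209 reads, or 614, 1113 and 1709 RPM. Here nid-sEV replicate 1 lay inside the aid-sEV range, and the other nid-sEV libraries were at or under the floor of 3 reads. Its log2 difference of 5.47 (SE 2.24, adjusted p = 0.17 by limma) was not called. Without nid-sEV replicate 1 it was 7.85, with an adjusted p of 0.022 by limma, and was called. It was 3.19 without nid-sEV replicate 2, 2.02 by edgeR's quasi-likelihood test, 2.28 by DESeq2 and 2.63 by edgeR's exact test, and was not called in these. The 4, 7 and 8 reads of miR-195a-5p in nid-sEV replicates 1, 2 and 3 were 31.0 to 158 RPM, and its 23, 7 and 5 reads in aid-sEV replicates 1, 2 and 3 were 19.9 to 44.3 RPM, so the groups overlapped. The other 3, miR-15a-5p, miR-497a-5p and miR-503-5p, had between 0 and 13 reads in any library.

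Summed over these 6, the level was 2656, 518 and 515 RPM in nid-sEV replicates 1, 2 and 3 and 1205, 1743 and 2593 RPM in aid-sEV replicates 1, 2 and 3. The sum of nid-sEV replicate 1 lay above all aid-sEV libraries, while the other nid-sEV libraries lay under them. The difference on the log2(RPM + 1) scale was 0.98 (two-sided exact permutation test, p = 0.40), less than the spread within nid-sEVs, whose SD was 1.36. Without nid-sEV replicate 1 it was 1.77, and without nid-sEV replicate 2 or 3 it was 0.59 or 0.58. Of all the reads in the hexamer group, miR-103-3p and miR-107-3p together took 23.8%, 67.3% and 45.8% in nid-sEV replicates 1, 2 and 3 and 26.1%, 23.8% and 18.3% in aid-sEV replicates 1, 2 and 3. The nid-sEV replicates 2 and 3 stood above all other libraries in this share, and replicate 1 lay among the aid-sEV libraries.

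Other miRNAs connected with obesity or insulin sensitivity in rodents formed a list of 13, of which 12 had a row and miR-34a-5p had none. In aid-sEVs, 0 of the 12 were called up and 1, miR-122-5p, was called down, where 15.6% of all entries were called up and 1.81% down. In a fit of only the 219 entries detected in all libraries, 23 were called up and 15 down, so the share called down depended on the entries taken. The median log2 fold change of the list was -0.35, against -0.21 over the entries detected in all libraries and 1.11 over all entries. The one called, the main miRNA of liver cells, had 1618, 3000 and 396 RPM in nid-sEV replicates 1, 2 and 3 and 38.5, 42.6 and 24.5 RPM in aid-sEV replicates 1, 2 and 3. These groups did not overlap, and miR-122-5p fell by 5.14 on the log2 scale (SE 0.85, adjusted p = 0.016 by limma, called in 16 of 18 alternatives). Among the 11 that were not called, miR-143-3p, which is known to impair insulin signalling in obese liver, had 4235 to 19411 RPM in nid-sEVs and 3904 to 9715 RPM in aid-sEVs, with a log2 difference of -0.82 (SE 0.67). The values of miR-802-5p, also known to be raised in obese liver, were 119 to 487 and 88.0 to 278 RPM. The ranges of miR-29a-3p, which is known to be raised in diabetic animals, were 4670 to 17679 and 5482 to 11459 RPM, and those of miR-27b-3p, an inhibitor of fat cell formation, were 26457 to 54012 and 19080 to 30945 RPM. All 11 overlapped between the groups. The share of all entries that overlap was not counted, so this describes the 11 and does not set them apart.

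A last list held other miRNAs from introns of lipid and energy genes. Of its 4 names, miR-33-5p and miR-33-3p had no row, and 0 of the other 2 were called, against 17.4% of all entries. The 3p arm miR-378a-3p, from an intron of the gene for the coactivator PGC-1β, was among the 4 entries nearest to miR-103-3p in profile. It had 619, 1081 and 297 RPM in nid-sEV replicates 1, 2 and 3 and 805, 707 and 671 RPM in aid-sEV replicates 1, 2 and 3. Its mean in nid-sEVs, 666 RPM, was near the 631 RPM of miR-103-3p. In aid-sEVs its range lay above the 350 to 514 RPM of miR-103-3p. The log2 difference of miR-378a-3p was 0.31 (SE 0.58, adjusted p = 0.77 by limma), and its aid-sEV libraries again lay within its nid-sEV range. The 5p arm miR-378a-5p had at most 8 reads in a library.

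**Figure D3:**
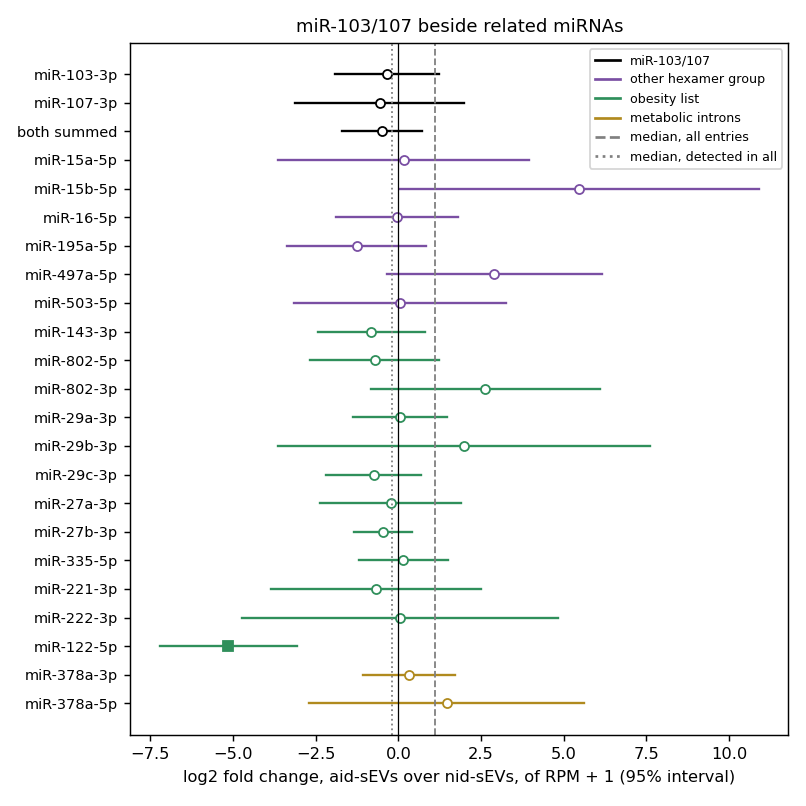
Log2 fold change of aid-sEVs over nid-sEVs on the log2(RPM + 1) scale with its 95% limma interval, for miR-103-3p, miR-107-3p and their sum (black), the other 6 of the hexamer group (purple), the obesity list (green) and the metabolic intron list (ochre). Filled squares passed the call and open circles did not, and the lines mark 0 and the medians of 1.11 and -0.21. The intervals of miR-103-3p, miR-107-3p and their sum include 0, and miR-122-5p is the only filled square.

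Leaving out single libraries moved the members more than any other choice. The log2 difference of miR-103-3p was 0.14 without nid-sEV replicate 2, its highest library, and fell to -0.92 without nid-sEV replicate 3, its lowest. That of miR-107-3p was -1.47 without nid-sEV replicate 2 and 0.031 without aid-sEV replicate 2. The adjusted p by limma in these fits was at least 0.22 for miR-103-3p and 0.39 for miR-107-3p. The same library, nid-sEV replicate 2, set the upper end of the nid-sEV range for miR-103-3p and, with 2 reads, the lower end for miR-107-3p.

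**Figure D4:**
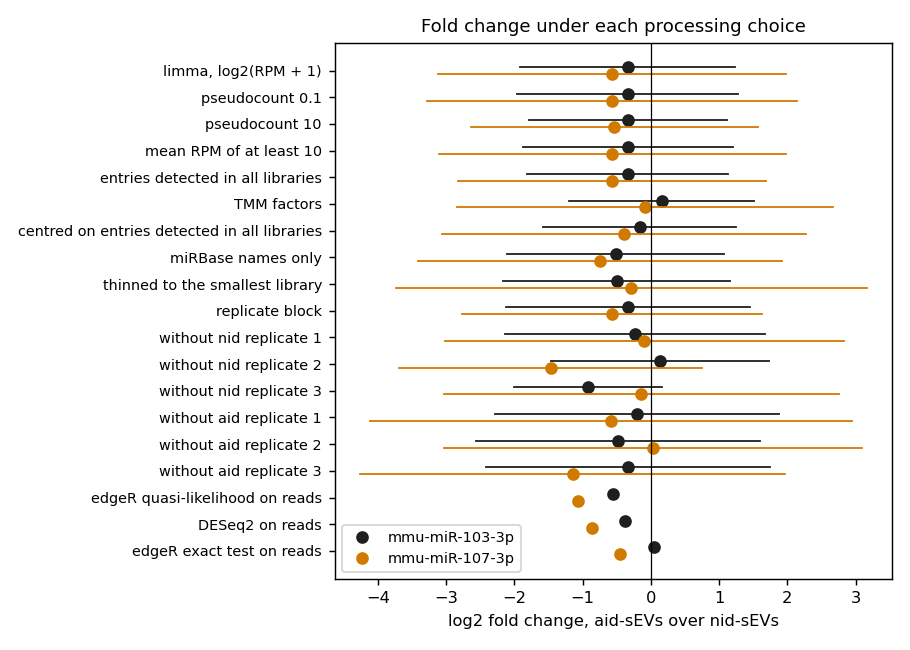
Log2 fold change of mmu-miR-103-3p (black) and mmu-miR-107-3p (orange), aid-sEVs over nid-sEVs, under each processing choice. Lines are 95% limma intervals, and points without a line come from tests on reads that gave no such interval. Values run from -0.92 to 0.16 for miR-103-3p and from -1.47 to 0.031 for miR-107-3p, and each interval drawn includes 0.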

How the data were processed

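Small RNA of sEVs from cultured islets was sequenced in 3 NCD and 3 HFD libraries, each from 5 ng of RNA, and a company processed the reads. The authors deposited 1 table of 718 entries with RPM per library, as the file header names it. Their processing notes list fastp 0.23.0, HISAT2 2.2.1 and GRCm38, and the counting and the miRNA reference are not given in the sources used here. The columns of their own comparison (fold change, mean abundance, p-value, FDR) were not used.

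Division by the RPM of 1 read gave whole reads, within 0.01, for 100% of the values. Totals per library were 50534 to 519315 reads, so 3 reads, the floor, were 5.78 to 59.4 RPM. Groups came from the sample titles. The groups were compared with limma 3.58.1 in R 4.3.3 on log2(RPM + 1), without a filter. P-values were adjusted by Benjamini-Hochberg over 718 entries. On this scale the size of changes of low entries depends on the value added to RPM. The median log2 fold change over all entries was 1.78 with 0.1 added, 1.11 with 1 and 0.39 with 10. The edgeR 4.0.16 and DESeq2 1.42.0 tests on recovered reads were alternatives. Single values were compared by exact permutation (scipy 1.17.1). Sequences and hairpin positions are those of RefSeq, GRCm38.p6 and host genes those of GENCODE M21. The scripts were tested on simulated data. The members, lists and tests were chosen with earlier results of these data known. Besides the members, the entries named were the AGCAGC group, both lists, the 4 nearest profiles, the 2 neighbours in level on each side, and cell markers. Alternatives were pseudocounts, filters, scalings, thinning, a replicate block, tests on reads and each library left out.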

Additional observations from a re-analysis of the deposited data

How the results depend on the processing

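In each of the 19 alternatives for miR-103-3p and for miR-107-3p, neither was called. The sign of miR-103-3p turned in 3, with 0.16 under TMM factors, 0.043 by edgeR's exact test on reads and 0.14 without NCD replicate 2, and that of miR-107-3p turned in 1, with 0.031 without HFD replicate 2. Leaving out single libraries, the difference of miR-103-3p on the log2 scale ran from -0.92 to 0.14 and that of miR-107-3p from -1.47 to 0.031, and the share of miR-107-3p differed by -18.2 to 3.14 percentage points. TMM factors and centring moved the median of all entries from 1.11 to 1.43 and 1.28.

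The 125 calls over all entries became 71 with a pseudocount of 10, 78 with a mean RPM of at least 10, 38 among the entries detected in all libraries, 58 after thinning, 69 of 245 by edgeR's quasi-likelihood test, 76 by edgeR's exact test, 20 at an adjusted p under 0.01, and 34 to 176 with a library left out. With the replicate block limma made 0 calls, with 187 entries at an unadjusted p under 0.05. The labels do not say that the numbers pair the libraries, and the deviations of same-numbered libraries correlated at -0.054, 0.13 and -0.11. Under the block, miR-103-3p stayed at -0.34 and miR-107-3p at -0.57. The call of miR-122-5p was lost after thinning (-6.72, adjusted p = 0.11 by limma) and under the block (-5.14, adjusted p = 0.070), with a difference at least as large as the -5.14 without them, and the cause was not tested. The alternatives for other arms were not run, since no other arm had a row. Depth limits miR-107-3p, with 2 to 39 reads in a library.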
